A study of Homo sapiens with 9 samples.

Results

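Ribosome biogenesis genes were followed in MiaPaCa2 cells, an established line from a human pancreatic carcinoma, after the cells were given the supernatant of pancreatic stellate cells. The members are 47 listed genes of RNA polymerase I transcription, small nucleolar ribonucleoproteins (snoRNPs), the processing of the small and the large ribosomal subunit, and nucleolar chaperones. A gene was measured through a probe set annotated with its symbol alone, and where it had several, through the one that was brightest on average. This gave 42 of the 47, all with a mean log2 level of at least 5, the limit for the 12402 genes tested. NOP56, DKC1, BOP1 and PPAN had only probe sets that the annotation shares between symbols, and no probe set carried the symbol GNL3, so these 5 genes were not analysed here.

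The groups were MiaPaCa2 cells exposed to supernatant of naive stellate cells for 1, 2, 3, 4, 5, 6, 7 or 24 h, and a control harvested at 24 h, each with 1 Affymetrix expression array of total RNA. The label of the control repeats the treatment of the exposed cells, and what the control received in place of supernatant is not stated. Hours of exposure and other differences between harvests cannot be told apart. With 1 array a group there is no replicate culture, so the spread behind each standard error (SE) was how far the 7 hourly arrays lay from a straight line over time. The single arrays at 24 h and of the control have no spread of their own and were taken to vary likewise.

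All levels below are log2 values as the authors deposited them, and a difference of 1 is a doubling of the array signal. The levels of different genes are read by different probes and are not compared. In a bulk sample, fewer cells of a type and less RNA per cell cannot be told apart. The keratins KRT8, KRT18, KRT19 and KRT7, markers of epithelial carcinoma cells, were measured, whereas the epithelial markers EPCAM (mean 2.60) and CDH1 (mean 3.50) lay below the limit of 5. VIM, listed with them but a mesenchymal marker that fibroblasts also express, read 13.92 to 14.02 in the exposed arrays and 13.84 in the control. Of the 10 stellate cell or fibroblast markers 8 were measured, their mean level being 7.66 in the control, 7.94 to 8.10 at 1 to 7 h and 8.14 at 24 h, with LUM (mean 2.35) and PDGFRB (mean 3.98) below the limit. The 5 h array and the control correlated least with the other arrays (median r of 0.991 for both, against at least 0.996 for the rest). The 5 h array also scattered most about the fitted lines (SD 0.165, others 0.079 to 0.102) and had the highest difference between the 3′ and 5′ probe sets of ACTB (2.24, others 1.59 to 1.97).

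Ribosomes are built in the nucleolus. RNA polymerase I transcribes a long precursor of the ribosomal RNAs, guide RNAs in snoRNPs direct the chemical modification of that precursor, and a large set of processing factors, helicases and GTPases cut it and fold it into the small and the large subunit. Growing tumour cells make ribosomes at a high rate, and many of these factors are known targets of the transcription factor MYC, which binds the E-box sequence CACGTG.

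The E-box was therefore looked for in the promoter windows of the members, which run from 250 bases before to 50 bases after the annotated start (RefSeq, GRCh38.p14). The letters CACGTG read the same on both strands, and no other motif was searched. Of the 42 measured members 36 had a window, and 17 of these (47.2%) held the E-box. It was found in 12.6% of the 10050 tested genes with a window, in 7.26% of all 35116 windows, and in 23 of 76 other genes of the pathway (30.3%). The 17 genes held 18 sites, 16 of them within 50 bases of the start. For the 11 sites after the start this follows from the window, which ends there at 50 bases. The sites of GAR1 and of 5 other members are printed with the E-box in capitals, on the strand of the gene. These 5 had the highest slopes over the hourly arrays of the 17 genes, 0.048 to 0.066 per hour. Carriers with low slopes, such as NAT10 (0.006), UTP20 (0.010), FBL (0.010) and NOP14 (0.013), are not printed. No site was found for RRS1, NOP58, POLR1B, TCOF1 and RRP15, whose slopes were also high, though a window may have been lacking.

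MRTO4, chr1:19251807-19251836, plus strand: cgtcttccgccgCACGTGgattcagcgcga
GNL2, chr1:37595917-37595946, minus strand: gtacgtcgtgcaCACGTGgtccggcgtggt
LTV1, chr6:143843354-143843383, plus strand: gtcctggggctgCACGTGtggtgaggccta
NOP2, chr12:6568242-6568268, minus strand: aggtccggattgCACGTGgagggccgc
PNO1, chr2:68157885-68157914, plus strand: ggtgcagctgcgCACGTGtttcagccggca
GAR1, chr4:109815781-109815810, plus strand: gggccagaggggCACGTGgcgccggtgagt

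NOP10 was the member with 2 E-boxes, 170 and 11 bases before its start. Its 250 bases before the start are shown because its level, described below, hardly moved over the arrays.

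NOP10, chr15:34343137-34343386, minus strand: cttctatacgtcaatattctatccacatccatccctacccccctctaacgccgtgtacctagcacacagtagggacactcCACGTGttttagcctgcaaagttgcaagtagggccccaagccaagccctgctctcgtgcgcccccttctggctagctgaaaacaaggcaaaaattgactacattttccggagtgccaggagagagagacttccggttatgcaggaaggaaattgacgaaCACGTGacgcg

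The median slope over 1 to 7 h was 0.026 per hour in the members with these letters (16 of 17 above 0) and 0.019 per hour in those without (15 of 19 above 0). This is a description of the windows and not a test of MYC binding. The MYC transcript itself read 11.20, 11.41, 11.24, 11.26, 11.10, 11.17 and 11.32 at 1 to 7 h, 11.24 at 24 h and 11.05 in the control, with no ordered course over the hours. Its difference of the 1 to 7 h arrays from the control, 0.19 ± 0.11 (SE), did not pass (limma, adjusted p = 0.263).

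In most members the levels were lower at 1 and 2 h than at 6 and 7 h, and lower again at 24 h. In 32 of the 42 members both the 6 h and the 7 h level exceeded both the 1 h and the 2 h level, an order found in 18.1% of all genes tested. The 24 h level lay below both the 6 h and the 7 h level in 36 members (31.2% of all genes), and 32 members had both properties (13.8% of all genes). No least margin was required, and DDX10, which had both, read 9.967 at 24 h and 9.9735 at 7 h. The highest of the 9 arrays was that of 6 or 7 h in 27 members (19.2% of all genes), and the lowest that of 1 or 24 h in 20 (18.6%). These counts, and the alternatives to them, were chosen after seeing the data and carry no test. With the arrays shifted to 1 common median the count with both properties was 37, against 25.7% of all genes, and with the mean over each gene's probe sets it was 27, against 14.8%.

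**Figure D1:**
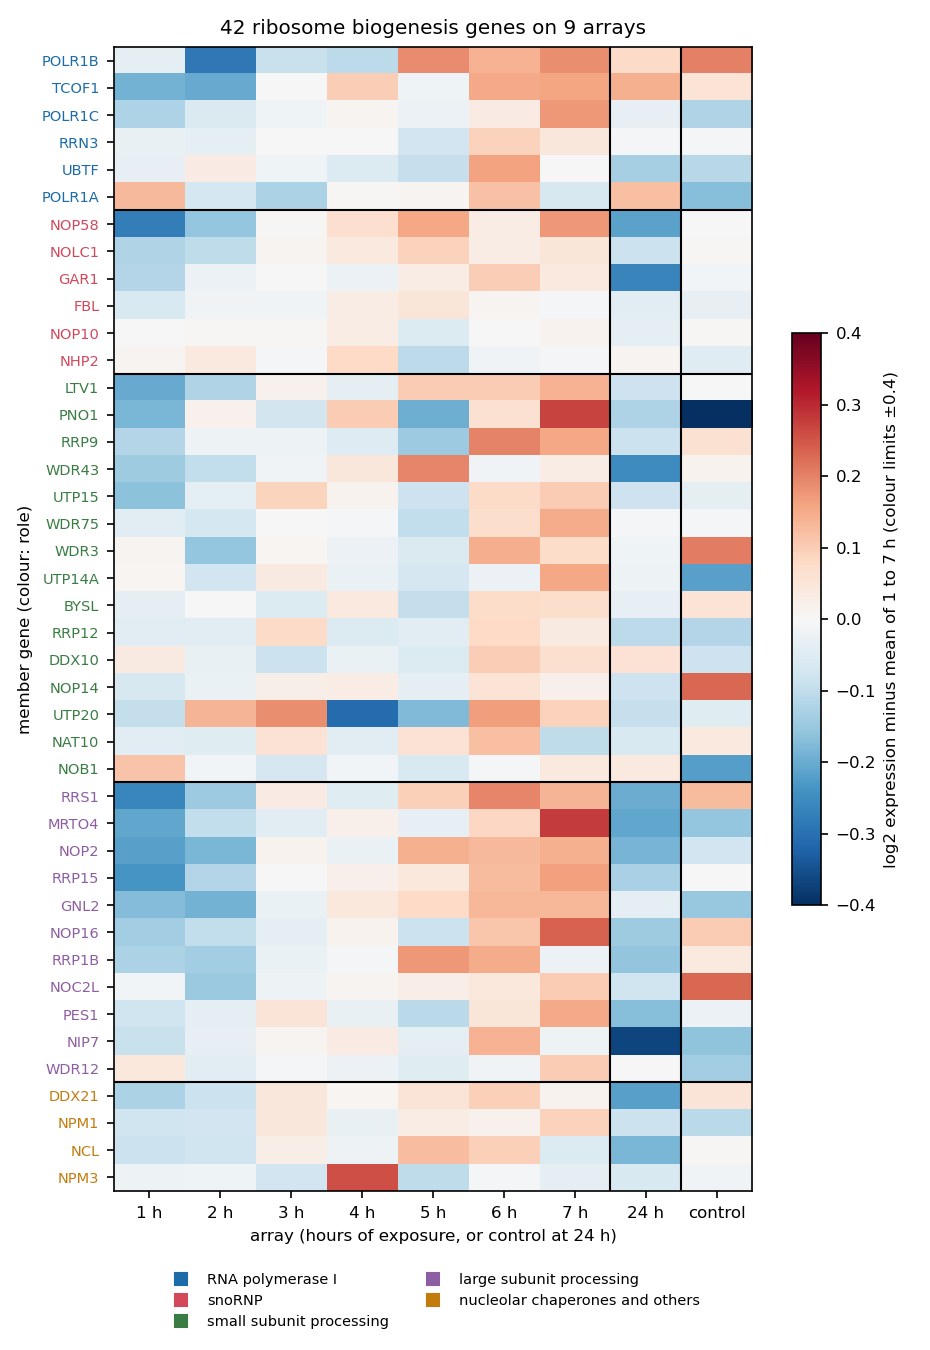
Log2 level of each of the 42 measured members (rows, ordered by role) in each of the 9 arrays (columns), minus the mean of that gene over the 7 hourly arrays, with the colour scale ending at 0.4 on either side. Most rows lie below their mean at 1, 2 and 24 h and above it at 6 and 7 h, while PNO1 stands out by its low control level.

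The courses were shallow. The fitted slope was positive in 37 of 42 members, and negative in 5, against 41.8% and 58.1% of all genes, and ran from −0.01 to 0.07 per hour with a median of 0.03, where the median of all genes was −0.01. No member's slope passed at an adjusted p of 0.05 (limma, Benjamini-Hochberg adjustment over all genes), and none of the 12402 genes did (0%). At an unadjusted p of 0.05, 12 members had a higher level with time and 0 a lower one, against 4.89% and 10.8% of all genes. The members' slopes had an SE of 0.012 to 0.032, and their adjusted p ran from 0.118 to 0.979. No member passed for curvature over 1 to 7 h either (limma, 0% of all genes). At an unadjusted p of 0.05 the count was 0 members against 6.97% of all genes, and the squared term was positive in 22 members against 58.3% of all genes. The members' slopes stayed short of the threshold under every alternative setting run. The proliferation markers MKI67, TOP2A, CCNB1, CDK1, AURKA and BUB1 also had 6 of 6 positive slopes, with a median of 0.02 and none passing, and their part in the members' course was not tested.

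**Figure D2:**
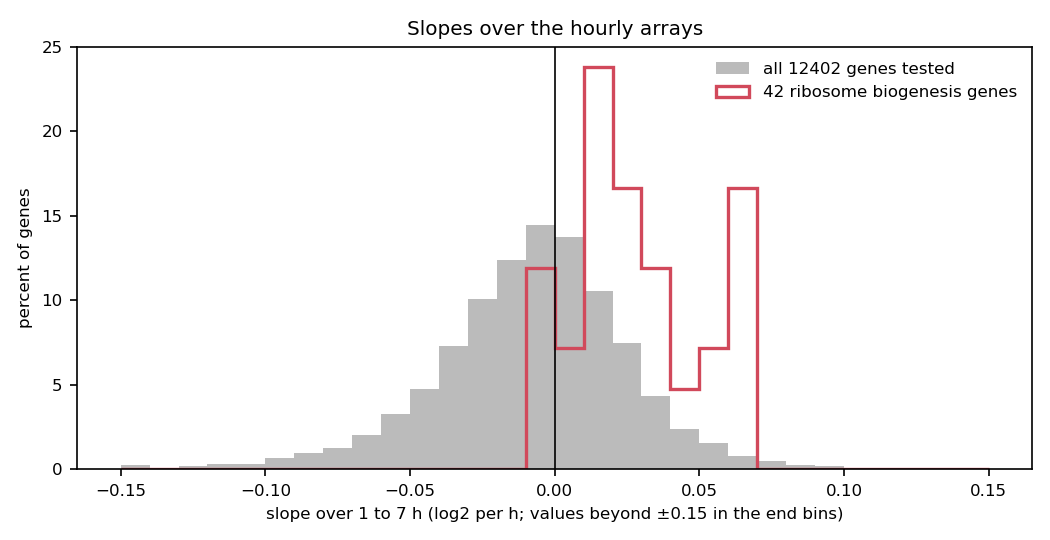
Histogram of fitted slopes over 1 to 7 h (x axis, log2 per hour) as the percent of genes in each bin (y axis), for the 42 members and for all 12402 genes tested. The members centre on 0.03 and all genes on −0.01, and the distributions overlap.

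Set against the control array, the members began below it and ended above it within the hourly series. The median member lay −0.07 from the control at 1 h and −0.04 at 2 h, then 0.01, 0.03 and 0.03 at 3, 4 and 5 h, and 0.10 and 0.11 at 6 and 7 h. At 24 h it was −0.07. Of the 42 members, 11 exceeded the control at 1 h and 17 did at 2 h, where 52.8% and 49.9% of all genes were above it. The number was 27, 25 and 25 at 3, 4 and 5 h (47.8%, 49.3% and 38.7% of all genes), 36 and 33 at 6 and 7 h (50.8% and 47%), and 12 at 24 h (52.7%). All these differences share the single control array, and the median of all genes stayed between −0.06 and 0.02. The hours between depended on the processing. With the arrays shifted to 1 median, 22 members exceeded the control at 2 h and 37 at 5 h (medians 0.01 and 0.19). With the mean over probe sets, 20 did at 5 h (median −0.02). Under both settings the median was below the control at 1 h (−0.08 and −0.04) and above it at 7 h (0.22 and 0.05).

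**Figure D3:**
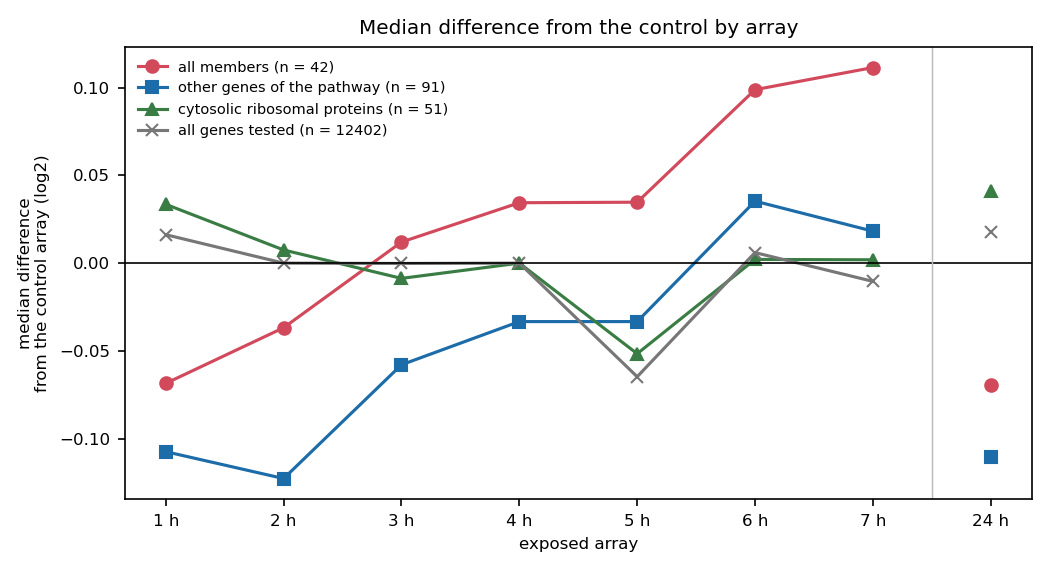
Median log2 difference from the control array (y axis) in each exposed array (x axis, hours) for the 42 members, the 91 other genes of the pathway, 51 cytosolic ribosomal protein genes and all genes tested. The members' median climbs from −0.07 at 1 h to 0.11 at 7 h and is −0.07 at 24 h, while the median of all genes stays near 0.

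Averaged over 1 to 7 h, the members lay on both sides of the control. The difference was positive in 24 and negative in 18 (48.2% and 51.8% of all genes), with a median of 0.01 against −0.01 for all genes. A single member, PNO1, passed (13.9% of all genes passed: 5.85% higher and 8.02% lower). At an unadjusted p of 0.05 the count was 5 members, 3 higher and 2 lower, against 30.2% of all genes. In the same contrast the 6 proliferation markers all passed as lower than the control, with differences of −0.998 to −0.715, and their mean level was 10.69 to 10.97 at 1 to 7 h, 10.79 at 24 h and 11.66 in the control. Of the 8 stellate cell or fibroblast markers measured, 7 were higher and 4 of them passed, while ACTA2 was lower (−0.40). Of 4 leukocyte markers the 3 measured were higher too, LYZ by 2.38, CD14 by 0.48 and CD74, with a mean level of 5.18, by 0.11. PTPRC (mean 3.64) lay below the limit of 5. The part of any of these lists in the members' values was not tested. Scaling moved the members' balance: with the arrays shifted to 1 median, 36 of 42 differences were positive with a median of 0.07, and the median of all genes was 0.06.

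The lone 24 h array lay below the 1 to 7 h level in 35 of 42 members and above it in 7 (43.3% and 56.7% of all genes). The median difference was −0.08, against 0.02 for all genes. No member passed, the smallest adjusted p being 0.129, and a single gene of the 12402 did (0.00806%). At an unadjusted p of 0.05 the 24 h level was lower in 8 members and higher in 0, against 5.9% and 9.79% of all genes. With array weights 1 member, NIP7, passed.

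**Figure D4:**
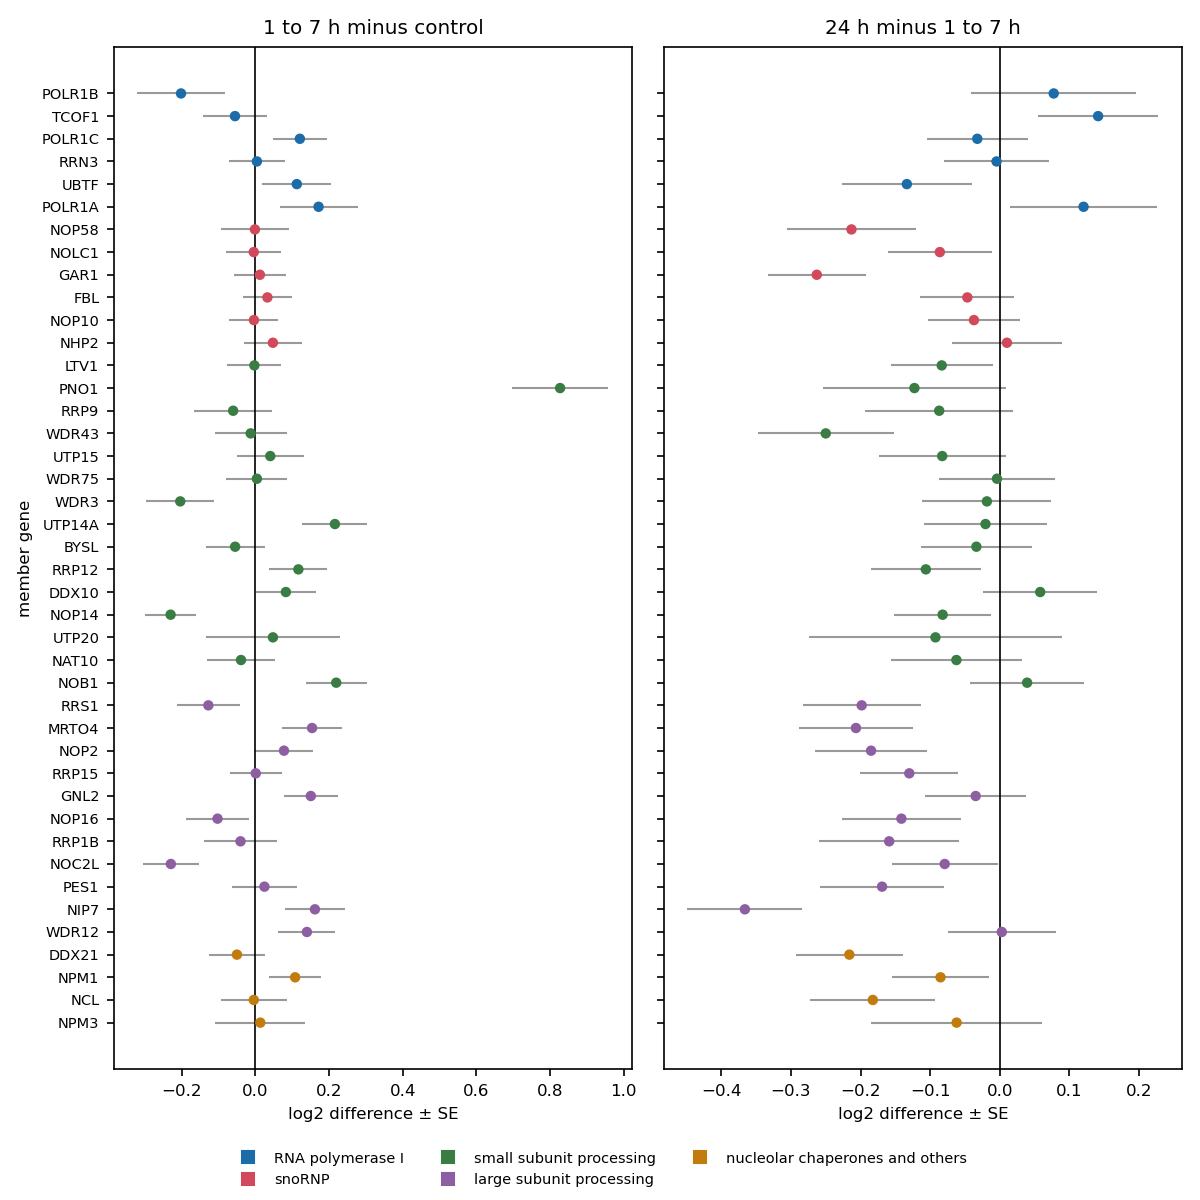
Log2 difference (x axis) of the 1 to 7 h level from the control and of the 24 h array from the 1 to 7 h level, for each of the 42 members (y axis), with bars of 1 SE from limma. PNO1 stands at 0.83 against the control, and most 24 h differences lie to the left of 0.

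Among the 6 genes of RNA polymerase I transcription 5 slopes were positive, with a median of 0.03 per hour, and 3 of them had an unadjusted p of 0.05 or less. POLR1B, which with POLR1A forms the catalytic core of the enzyme, read 9.15, 8.90, 9.10, 9.08, 9.37, 9.33 and 9.37 at 1 to 7 h, 9.26 at 24 h and 9.39 in the control. Its levels from 5 h on were all above those of 1 to 4 h, and the control was above all of them. The slope was 0.064 ± 0.021 per hour (adjusted p = 0.210) and the difference from the control −0.20 ± 0.12 (adjusted p = 0.292). Over its 4 bright probe sets the slopes were all positive, from 0.033 to 0.064, while the 1 to 7 h differences to the control spanned −0.24 to 0.03.

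TCOF1, the treacle protein that brings polymerase I factors to the ribosomal RNA genes, did not have a lower 24 h level with the probe set used. Its levels were 8.11, 8.10, 8.30, 8.40, 8.28, 8.45 and 8.46 over the hours, 8.44 at 24 h and 8.35 in the control. The slope was 0.062 ± 0.015 (adjusted p = 0.138), and the 24 h array was 0.14 ± 0.09 above the hourly level (adjusted p = 0.477). The next brightest probe set of TCOF1 gave −0.12 for that difference, its 24 h level of 7.42 being the lowest of the 9 arrays, so the sign at 24 h depends on the probe set. POLR1C, a subunit that polymerases I and III share, went from 9.08 at 1 h to 9.38 at 7 h and was 9.17 at 24 h and 9.08 in the control, with a slope of 0.038 ± 0.013 (adjusted p = 0.219).

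POLR1A and UBTF were not higher at both 6 and 7 h than at both 1 and 2 h. POLR1A, the largest subunit, read 8.20, 8.004, 7.95, 8.08, 8.08, 8.19 and 8.01 at 1 to 7 h, 8.19 at 24 h and 7.90 in the control. Every exposed level was above the control, by 0.17 ± 0.11 on average over 1 to 7 h (adjusted p = 0.319). Its 2 other probe sets gave −0.74 and −0.07 for that difference, and the mean over probe sets gave −0.21, so the sign depends on the probe set. UBTF, which binds the promoter of the ribosomal RNA genes, and RRN3, which makes the polymerase competent to start, had slopes of 0.010 ± 0.017 and 0.015 ± 0.013. RRN3 did have the order of most members, within a narrow range, with 9.85 at both 1 and 2 h, 9.98 and 9.93 at 6 and 7 h, and 9.88 at 24 h.

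Of the snoRNP proteins 6 of 8 were measured, and NOP58 had the highest slope of them. NOP58, a core protein of the box C/D particles that guide methylation, read 11.42, 11.54, 11.70, 11.76, 11.85, 11.72 and 11.87 at 1 to 7 h, 11.48 at 24 h and 11.69 in the control. The 24 h level was thus close to that of 1 and 2 h and below every later hour. The slope was 0.067 ± 0.016 per hour (adjusted p = 0.136), or 0.40 over the 6 h from 1 to 7 h, and the 24 h difference −0.21 ± 0.09 (adjusted p = 0.311).

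FBL, the methyltransferase of the same particles, moved little. It read 11.83, 11.87, 11.87, 11.92, 11.94, 11.90 and 11.88 at 1 to 7 h, 11.84 at 24 h and 11.86 in the control, a difference from the control of 0.03 ± 0.07 (adjusted p = 0.828). The 95% interval of that difference ran from −0.12 to 0.19.

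The box H/ACA particles, which guide pseudouridylation, were represented by NHP2, NOP10 and GAR1. NHP2 read 12.14, 12.17, 12.12, 12.21, 12.02, 12.11 and 12.12 over the hours, 12.14 at 24 h and 12.08 in the control. NOP10, whose promoter window holds the pair of E-boxes printed above, stayed between 11.68 and 11.77 in all 9 arrays. GAR1 read 9.78, 9.87, 9.89, 9.87, 9.92, 9.99 and 9.93 at 1 to 7 h, 9.63 at 24 h and 9.88 in the control. Its 24 h level was the lowest of the 9 arrays, 0.26 ± 0.07 below the hourly level (adjusted p = 0.157). NOLC1, a chaperone of snoRNPs, went from 11.89 at 1 h to 12.10 at 5 h and 12.06 at 7 h, with 11.92 at 24 h and 12.01 in the control.

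All 15 listed small subunit processing genes were measured, and 14 slopes were positive with a median of 0.02 per hour, 1 of them at an unadjusted p of 0.05 or less. The late hours exceeded the early ones, with a lower 24 h level, in 11 of the 15. LTV1, which takes part in the late maturation of the small subunit and whose E-box site is printed above, read 9.56, 9.64, 9.78, 9.72, 9.86, 9.86 and 9.90 at 1 to 7 h, 9.68 at 24 h and 9.76 in the control. The control thus sat in the middle of the hourly range. The slope was 0.055 ± 0.013 per hour (adjusted p = 0.133), or 0.33 over the 6 h.

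PNO1, an assembly factor that sits on the precursor of the small subunit beside the nuclease NOB1, was the only member at least 1.5-fold from the control in any exposed array. The count was 1 of 42 in each of the 8 arrays, where 6.42%, 6.32%, 5.11%, 5.01%, 6.84%, 5.32% and 6.82% of all genes were that far apart at 1 to 7 h and 6.57% at 24 h. PNO1 read 10.36, 10.55, 10.47, 10.64, 10.34, 10.60 and 10.81 at 1 to 7 h, 10.42 at 24 h and 9.71 in the control. Every exposed array was above the control, by 0.63 to 1.10. The 1 to 7 h difference was 0.83 ± 0.13 (adjusted p = 0.00595, 95% interval 0.53 to 1.12), a 1.77-fold higher level.

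That difference was seen with a single probe set of PNO1. The probe set used carries the suffix _x_at, which the manufacturer gives where probes can also match other transcripts. A further PNO1 probe set read 10.02, 10.00, 10.08, 10.13, 10.21, 10.15 and 10.36 at 1 to 7 h, 9.89 at 24 h and 10.23 in the control, a difference of −0.10. The other one gave −0.06. With the mean over the 3 probe sets the difference was 0.22 and did not pass (adjusted p = 0.166). The slopes of the 3 probe sets, in contrast, were all positive, from 0.037 to 0.052 per hour.

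NOB1, the nuclease that makes the final cut of the small subunit RNA, read 10.64, 10.52, 10.46, 10.52, 10.47, 10.52 and 10.57 at 1 to 7 h, 10.57 at 24 h and 10.31 in the control. All 8 exposed arrays were above the control, by 0.22 ± 0.08 over 1 to 7 h, which did not pass (adjusted p = 0.111). UTP14A, a component of the early processing complex, differed by 0.22 ± 0.09 (adjusted p = 0.139), and by −0.01 with its other bright probe set.

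NOP14, which assembles into the early small subunit precursor, lay on the other side of the control. It read 8.41, 8.45, 8.50, 8.50, 8.44, 8.53 and 8.49 at 1 to 7 h, 8.39 at 24 h and 8.70 in the control, which was the highest of the 9. The difference was −0.23 ± 0.07 (adjusted p = 0.0589). It passed with array weights (adjusted p = 0.0349), with a minimum mean of 6 (adjusted p = 0.0446) and without the 5 h array (adjusted p = 0.0363). WDR3, also of the early complex, was likewise below the control in all 8 exposed arrays, by 0.06 to 0.36, with a 1 to 7 h difference of −0.20 ± 0.09 (adjusted p = 0.179).

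WDR43, of the subcomplex that joins transcription to processing, read 8.98, 9.02, 9.11, 9.17, 9.32, 9.11 and 9.15 at 1 to 7 h, 8.87 at 24 h and 9.13 in the control. Its highest level was at 5 h and its lowest at 24 h, a 24 h difference of −0.25 ± 0.10 (adjusted p = 0.273). The remaining genes of this role, WDR75, UTP15, UTP20, RRP9, RRP12, NAT10, BYSL and DDX10, had slopes from 0.006 to 0.040 per hour and differences from the control of −0.06 to 0.12, none of which passed.

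The large subunit genes had the highest median slope of the 5 roles. All 11 measured of 14 listed had a positive slope, with a median of 0.05 per hour, and 6 had an unadjusted p of 0.05 or less. The late hours exceeded the early ones, with a lower 24 h level, in 10 of 11. RRS1, which helps bring a ribosomal RNA and its proteins into the large subunit precursor in yeast, read 9.18, 9.30, 9.48, 9.40, 9.54, 9.64 and 9.58 at 1 to 7 h, 9.25 at 24 h and 9.57 in the control. The slope of 0.069 ± 0.015 per hour, or 0.42 over the 6 h, was the highest of the 42 members (adjusted p = 0.118). Its levels at 6 and 7 h were just above the control, and the 1 h level was 0.39 lower than the control.

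NOP2, a methyltransferase of the large subunit RNA, read 9.70, 9.73, 9.93, 9.89, 10.06, 10.05 and 10.06 over the hours, 9.73 at 24 h and 9.84 in the control. MRTO4, a factor that holds the place of a stalk protein during assembly, read 9.46, 9.57, 9.62, 9.69, 9.64, 9.76 and 9.95, with 9.46 at 24 h and 9.52 in the control. With these probe sets the 24 h level of both genes equalled an early one and the 7 h level was above the control. The other bright probe set of MRTO4 had its lowest level at 24 h (7.34). Its 7 h level of 7.69 was below the control (7.98), and its 1 to 7 h difference from the control was −0.39 in place of 0.15. The slopes were 0.065 ± 0.014 (adjusted p = 0.118) and 0.066 ± 0.014 (adjusted p = 0.120).

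GNL2, a GTPase of the large subunit precursor, read 9.30, 9.28, 9.44, 9.51, 9.55, 9.60 and 9.60 at 1 to 7 h, 9.43 at 24 h and 9.32 in the control. RRP15 read 9.01, 9.14, 9.25, 9.27, 9.29, 9.38 and 9.42, with 9.12 at 24 h and 9.25 in the control, each hour above the hour before. NOP16 went from 11.12 at 1 h to 11.49 at 7 h and was 11.11 at 24 h and 11.36 in the control. Their slopes were 0.060, 0.062 and 0.053 per hour, with adjusted p of 0.118, 0.118 and 0.167. RRP15's further bright probe set had a slope of −0.01 and the 4 of NOP16 ran from −0.004 to 0.071, so not every probe set of these genes had the course.

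**Figure D5:**
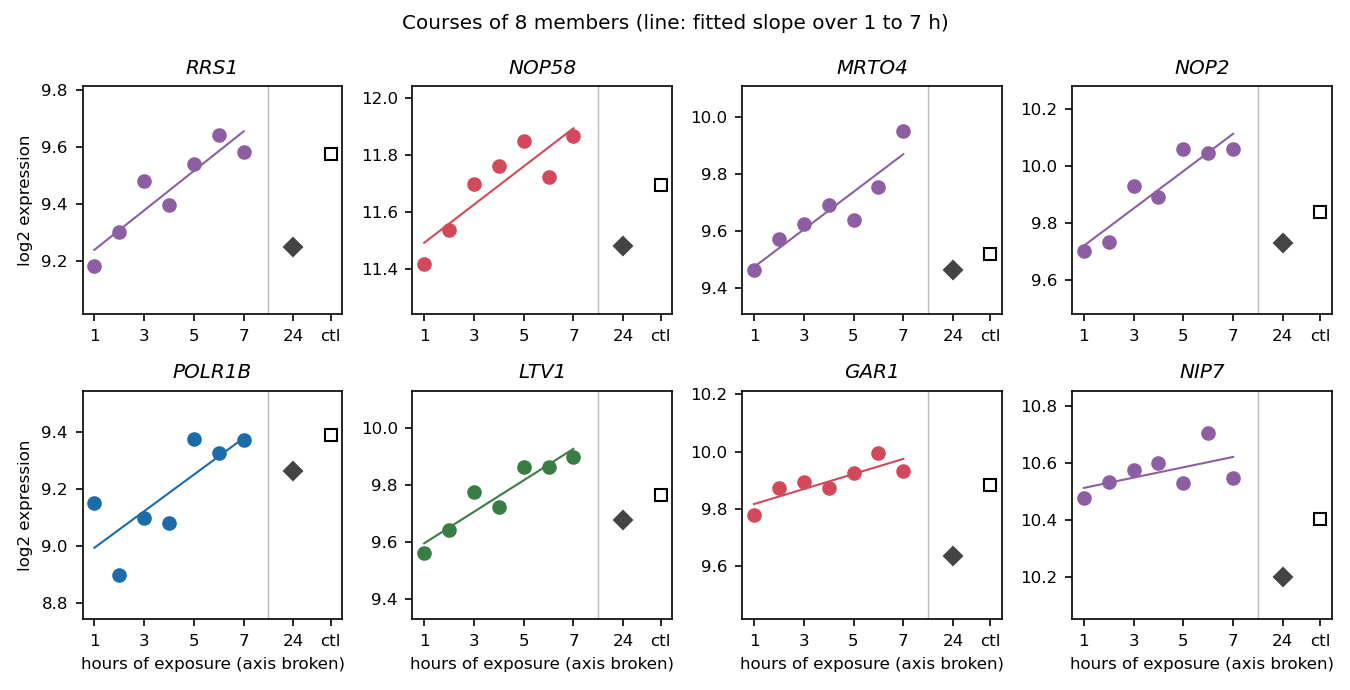
Log2 level (y axis) by hours of exposure (x axis) of RRS1, NOP58, MRTO4, NOP2, POLR1B, LTV1, GAR1 and NIP7, with points for the 1 to 7 h arrays, the fitted line, a diamond for the 24 h array and an open square for the control. RRS1 runs from 9.18 to 9.58 with 9.25 at 24 h, while NIP7 has a nearly flat line and its lowest level, 10.20, at 24 h.

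NIP7, needed for the maturation of the large subunit in yeast, had the lowest 24 h level relative to the hours. It read 10.48, 10.53, 10.58, 10.60, 10.53, 10.70 and 10.55 at 1 to 7 h, 10.20 at 24 h and 10.40 in the control. The 24 h array was below all other arrays, by 0.37 ± 0.08 from the hourly level (adjusted p = 0.129). Array weights gave −0.38 with an adjusted p of 0.0498, and the gene's further bright probe set gave −0.05. Over 1 to 7 h its difference from the control was 0.16 ± 0.08 (adjusted p = 0.227).

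NOC2L, which travels with the large subunit precursor, read 8.01, 7.87, 8.001, 8.03, 8.05, 8.06 and 8.12 at 1 to 7 h, 7.94 at 24 h and 8.25 in the control. All exposed arrays were below the control, with a difference of −0.23 ± 0.08 over 1 to 7 h (adjusted p = 0.0784), and the further bright probe set of the gene gave −0.71. PES1 and WDR12, which form a complex with BOP1, had slopes of 0.025 ± 0.016 and 0.007 ± 0.014, and RRP1B one of 0.038 ± 0.018.

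None of the nucleolar chaperones and others passed in any comparison. NPM1, the abundant nucleolar chaperone, read 13.80, 13.80, 13.92, 13.85, 13.91, 13.89 and 13.97 at 1 to 7 h, 13.79 at 24 h and 13.77 in the control, a difference from the control of 0.11 ± 0.07 (adjusted p = 0.346). All exposed arrays were above the control with each of its 3 bright probe sets, and the other probe sets gave differences of 0.15 and 0.31. DDX21, which acts on ribosomal RNA and on polymerase I transcription, read 12.16, 12.20, 12.33, 12.29, 12.33, 12.38 and 12.30, with 12.07 at 24 h and 12.33 in the control. Its 24 h level was the lowest of the 9 arrays, at −0.22 ± 0.08 from the hourly level (adjusted p = 0.242). The difference of DDX21 from the control was −0.05, and 0.01 with the arrays shifted to 1 median. NCL, nucleolin, was highest at 5 h (12.30) and lowest at 24 h (11.99), and NPM3 stayed between 8.83 and 8.92 apart from 9.19 at 4 h.

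How far a gene's probe sets told the same story was counted over all members. The 42 members had 76 probe sets with a mean of at least 5, of which 63 had a positive slope. Among the 34 not used above, 26 had a positive slope and 21 a lower level at 24 h than over the hours. With the 42 probe sets used, these counts were 37 and 35, and the shares of all genes tested were 41.8% and 43.3%. The lower level at 24 h was thus less frequent in the probe sets not used. Shares over all probe sets were not counted. In 19 members with more than 1 such probe set, all slopes were positive in 12, while the differences from the control had opposite signs in 10. The authors' filtered table held 6 members, NOP2, POLR1B and RRS1 by the probe set used here and LTV1, NOC2L and NOP16 by another.

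Other genes of ribosome production, listed apart from the members, were counted in the same way. Of 91 measured of 96 listed, 73 had a positive slope (41.8% of all genes tested), with a median of 0.02 per hour, and 0 passed. At an unadjusted p of 0.05, 26 were higher with time and 0 lower, against 4.89% and 10.8% of all genes. At 24 h, 61 lay below the hourly level (43.3% of all genes) and 0 passed. Against the control 3 passed as higher and 4 as lower, where 5.85% and 8.02% of all genes did. Passing was thus not more frequent here than among all genes. The genes named next were each read through 1 probe set, that of FCF1 with a mean level of 6.38. Other probe sets of theirs were not compared. TAF1A, a subunit of the polymerase I promoter factor, was 0.70 ± 0.15 below the control (a difference of −0.70, adjusted p = 0.0174), and FCF1 and UTP23, of small subunit processing, differed by −0.41 ± 0.10 (adjusted p = 0.0263) and −0.39 ± 0.11 (adjusted p = 0.0484). RPF2, which works with RRS1 in the large subunit, was higher than the control by 0.32 ± 0.08 (adjusted p = 0.0282).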

How the data were processed

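Total RNA of 9 MiaPaCa2 samples was hybridised to Affymetrix arrays, 1 array a group, and samples were grouped by their titles. The authors deposited log2 values made with RMA, per the submitters' processing notes; no RMA version or chip definition is named there. There were 54675 probe sets in the value table (41097 with 1 symbol in the platform annotation, 1801 with several, 11777 with none). Those with 1 symbol gave 19775 genes, and 12402 with a mean of at least 5 were tested. The authors' filtered table of 6370 probe sets held the same log2 values to within 5.00e-09, without a stated filter rule.

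The model of limma 3.58.1 in R 4.3.3 (lmFit, eBayes, two-sided, Benjamini-Hochberg adjustment over all genes tested, threshold 0.05) held the centred hour and indicators of the 24 h and control arrays, with 5 residual and 3.72 prior degrees of freedom. It was checked on simulated data whose planted changes exceeded those fitted for every member. Within a gene all simulated arrays had independent noise of equal spread. The check thus does not cover smaller effects or a less even spread. Curvature was tested with the squared hour added. The tables and figures were made with Python 3.11.15, pandas 2.3.3 and matplotlib 3.10.9. The members and the gene lists were chosen with earlier results of these data known. Values were given in every array for members with the largest differences in each role, and other members were named after their values were seen. Alternatives changed the estimation, probe set summary, scaling, filter, time scale or arrays used. The precision is limited by the number of arrays, which have no read depth.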

Additional observations from a re-analysis of the deposited data

How the results depend on the processing

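With 1 array a group, every standard error came from 7 hourly arrays, and no test separates exposure from differences between single harvests. No paired analysis was possible because each group held 1 array. No member's slope passed under any setting run, and PNO1 passed against the control in every setting except the mean over probe sets (0 members) and the authors' filtered table (0 members, PNO1 not in it).

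Genes with a slope that passed numbered 25 with robust estimation and an intensity trend, 5 with array weights, 4 with the arrays shifted to 1 median, 15 at a mean of at least 6, 74 with the log2 of the hour, and 0 to 73 when leaving out 1 array, with 73 without the 5 h array. Members with a positive slope numbered 34 to 39 when leaving out 1 array and 5 of 5 in the authors' filtered table.

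Genes that passed against the control, 1721 as reported (726 higher, 995 lower), numbered 2741 with array weights, 151 in the authors' filtered table, and 1080 (without 3 h), 1119 (without 4 h) to 2889 (without 5 h) when leaving out 1 array. The higher and lower calls numbered 1182 and 903 after quantile normalization again and 1370 and 820 with the arrays shifted to 1 median. Members that passed numbered 2 with array weights, with a mean of at least 6 and without the 5 h array (NOP14 and PNO1), 2 with the arrays shifted to 1 median (NOB1 and PNO1), and 1 to 2 when leaving out 1 array. The difference turned to −0.21 for POLR1A with the mean over probe sets and to 0.013 for DDX21 with the arrays shifted to 1 median. The cause of these shifts was not tested.

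Genes that passed at 24 h, 1 as reported, numbered 11 with robust estimation, 135 with array weights (NIP7, 1 member, among them), 2 with the arrays shifted to 1 median, 0 with the mean over probe sets, without a filter, with the squared hour and in the authors' filtered table, and 0 to 9 when leaving out 1 array (9 without 1 h and 9 without 5 h). At an unadjusted p of 0.05 the settings with 0 gave 1476, 2399, 2098 and 319 genes in limma. Members lower at 24 h numbered 32 to 37 when leaving out 1 array and 4 of 5 in the authors' filtered table. At 2-fold in place of 1.5-fold, 0 members were apart from the control at 1 to 6 h and 24 h, and 1 at 7 h. With the mean over probe sets 0 were apart at 3, 4, 5 and 7 h, and at 1, 2, 6 and 24 h the 1 member apart was NOC2L.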

Other observations

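The cytosolic ribosomal proteins, with which these factors build the subunits, were counted apart from the members. Each gene was read through 1 probe set, with no other compared, and of 77 listed 51 were measured. Of these, 41 had a negative slope over 1 to 7 h and 9 a positive one (58.1% and 41.8% of all genes tested). The median slope was −0.01, which is that of all genes. None passed in limma, and 0 had an unadjusted p of 0.05 or less (15.7% of all genes). Most of these probe sets read very high, such as RPL41 (mean 14.21) and RPS23 (mean 14.18), while RPLP2 (6.62) and RPL27A (8.37) read lower. Whether signals so high could still show a course was not tested. At 24 h, 44 of the 51 lay above the hourly level (56.7% of all genes). The median was 0.04, against 0.02 for all genes, with 0 passing (1 at an unadjusted p of 0.05). Against the control 1 of the 51 passed, where 13.9% of all genes did. It was FAU, a small subunit protein made as a fusion with a ubiquitin-like protein, at −0.25 ± 0.07 (limma, adjusted p = 0.0493). The difference in slope between these genes and the ribosome biogenesis genes was not tested.

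All 12 genes of the RNA exosome, which trims ribosomal RNA precursors, were measured, each through 1 probe set with no other compared. EXOSC7 read 9.90, 9.85, 9.84, 9.78, 9.79, 9.90 and 9.88 at 1 to 7 h, 9.86 at 24 h and 9.41 in the control, so that every exposed array was above the control, by 0.44 ± 0.08 over 1 to 7 h (limma, adjusted p = 0.00848). It was the 1 of 12 exosome genes that passed, where 13.9% of all genes did, and 7 of 12 slopes were positive (41.8% of all genes).

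In the MYC network 8 of 9 genes were measured and 7 had a negative slope (58.1% of all genes tested), none passing. At an unadjusted p of 0.05 in limma 3 were lower with time and 0 higher, against 10.8% and 4.89% of all genes. MXI1 and MNT, which compete with MYC for its partner MAX, were singled out after their values were seen. MXI1 read 8.69, 8.58, 8.34, 8.37, 8.03, 8.23 and 8.13 at 1 to 7 h, 8.67 at 24 h and 8.05 in the control. Its slope was −0.10 ± 0.02 per hour (adjusted p = 0.118), and that of MNT −0.09 ± 0.02 (adjusted p = 0.156). MXI1 was thus highest at 1 and 24 h, arrays in which 10 and 10 of the 42 members had their lowest level (7.06% and 11.5% of all genes). It was low in the control, where 4 members had their highest level and 7 their lowest (24.1% and 21% of all genes). MNT was instead highest at 2 h (8.46), with 8.27 at 1 h and 8.26 at 24 h. A relation of MXI1 or MNT to the ribosome biogenesis genes was not tested.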
